A study of Mus musculus with 48 samples.

Results

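Gene expression in the cortex of 17-month-old wild-type (WT) mice was compared with that in the whole brain of WT mice of the same age. The members were chosen by their labels as the mRNA arrays of WT mice aged 17 months, 3 of cortex and 3 of whole brain, which are 6 of the 24 mRNA arrays and of the 48 arrays of the series. All 6 came from C57BL/6J mice that carried no transgene, had no treatment and were labelled male. Each array held the total RNA of 1 sample, labelled with a single dye, and nothing in the labels says whether samples were pooled or whether a cortex and a whole brain came from the same animal, so the p-values below measure the spread between samples. The other groups used here were WT mice of 10 months and Tg2576 mice of 17 months, each with 3 cortex and 3 whole brain arrays. Tg2576 mice, of the strain labelled Tg(APPSWE)2576Kha, carry a mutant human amyloid precursor protein (APP) under a prion promoter, and per the study's methods they came from another supplier than the WT mice.

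The cerebral cortex is built from layers of glutamate neurons, local inhibitory neurons and glia, and it is one of the regions that whole brain RNA also contains. Whole brain adds regions that the cortex lacks: the striatum, hippocampus, thalamus and hypothalamus of the forebrain, the midbrain, the hindbrain and the cerebellum. Neurons that make serotonin lie in the raphe nuclei of the hindbrain, and those that make dopamine lie mostly in the ventral midbrain. Their cell bodies send axons to the cortex, but most of their mRNA stays in the cell body. Transcription factors of the Hox, Irx, Gata, Foxa and Pou4f families mark positions and neuron classes of the hindbrain and midbrain. In bulk RNA, fewer cells of a type and less RNA per cell cannot be told apart.

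The promoters of 3 serotonin neuron genes are shown because Tph2 and Slc6a4 were among the largest differences and because Fev is the transcription factor that defines this neuron class. Tph2 makes the enzyme that starts serotonin synthesis in the brain, Slc6a4 makes the serotonin transporter, and Gata2 and Gata3, which differed with them, make factors that bind the letters GATA. The windows are those of RefSeq on GRCm38.p6, from 250 bases before to 50 bases after the start of transcription, written 5′ to 3′ along the gene, and capitals mark AGATAA or, on the other strand, TTATCT. The Tph2 window is chr10:115184973-115185272 on the minus strand, that of Slc6a4 is chr11:76998347-76998646 on the plus strand, and that of Fev is chr1:74885359-74885658 on the minus strand.
Tph2: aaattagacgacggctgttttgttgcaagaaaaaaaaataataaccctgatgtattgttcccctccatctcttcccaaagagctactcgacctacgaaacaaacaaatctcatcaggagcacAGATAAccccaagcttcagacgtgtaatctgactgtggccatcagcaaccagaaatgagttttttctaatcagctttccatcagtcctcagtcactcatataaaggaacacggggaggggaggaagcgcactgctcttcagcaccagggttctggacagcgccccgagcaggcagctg
Slc6a4: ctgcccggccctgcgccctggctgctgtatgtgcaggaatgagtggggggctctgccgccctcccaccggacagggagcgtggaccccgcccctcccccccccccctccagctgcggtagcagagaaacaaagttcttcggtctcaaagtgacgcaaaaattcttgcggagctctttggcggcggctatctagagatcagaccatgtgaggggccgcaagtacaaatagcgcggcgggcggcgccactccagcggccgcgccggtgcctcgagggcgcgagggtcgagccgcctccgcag
Fev: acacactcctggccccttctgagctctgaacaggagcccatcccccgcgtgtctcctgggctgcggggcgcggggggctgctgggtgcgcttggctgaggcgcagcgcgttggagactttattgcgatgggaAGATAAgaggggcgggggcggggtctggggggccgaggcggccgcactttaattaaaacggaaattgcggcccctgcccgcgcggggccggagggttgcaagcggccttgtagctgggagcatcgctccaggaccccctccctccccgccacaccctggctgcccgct
Tph2 and Fev held 1 match each and Slc6a4 held 0. Of 32851 windows of this length in the table, 3672 (11.2%) held the motif on either strand. In the list of 11 serotonin and noradrenaline genes described below, 8 genes had a window and 2 of them held the motif.

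Levels are given as log2 intensity minus the 75th percentile of the array, so that 0 is the level of a probe at that percentile, and differences are cortex minus whole brain on this log2 scale. The 75th percentile was at an intensity of 612 to 824 on the cortex arrays and of 642 to 761 on the whole brain arrays. Between 34170 and 38497 probes of an array were well above background. Arrays of a tissue correlated at 0.991 to 0.993 (cortex) and 0.994 to 0.996 (whole brain), and arrays of different tissues at 0.984 to 0.991. Cortex replicates 1 and 2 lay on 1 slide, cortex replicate 3 on another and all 3 whole brain arrays on the third, so among these 6 arrays tissue and slide cannot be told apart. The RNA also went against a label: the Y-linked genes Ddx3y, Kdm5d, Uty and Eif2s3y were well above background on 0 of the 6 arrays, whereas Xist, which is made from an inactive X chromosome, was well above background on 6 of 6 at log2 levels of 0.99 to 1.47. Over the 24 mRNA arrays of the series Xist was well above background on 24, Eif2s3y on 2 and the other 3 Y-linked genes on 0. The labelled sex is therefore not used below.

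Cortex replicate 2 stood apart from the other cortex arrays. The mean log2 level of 29 tested cerebellar genes was -1.39 and -1.31 on cortex replicates 1 and 3 and -0.04 on replicate 2, against -0.32, 0.02 and 0.53 on the whole brain arrays. The mean of 18 hypothalamic genes was -0.59 and -1.25 on cortex replicates 1 and 3 and 1.29 on replicate 2, which was above the 0.98, 0.26 and 0.98 of whole brain. Replicate 2 was the highest of the 3 cortex arrays in 21 of the 29 cerebellar genes, 17 of the 18 hypothalamic genes and 14 of 16 thalamic genes. Results on genes of these regions are given with and without it. Cortex replicate 1 was in turn the highest cortex array for striatal genes, with a mean of 2.43 against 1.63 and 1.62 on the other two.

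**Figure D1:**
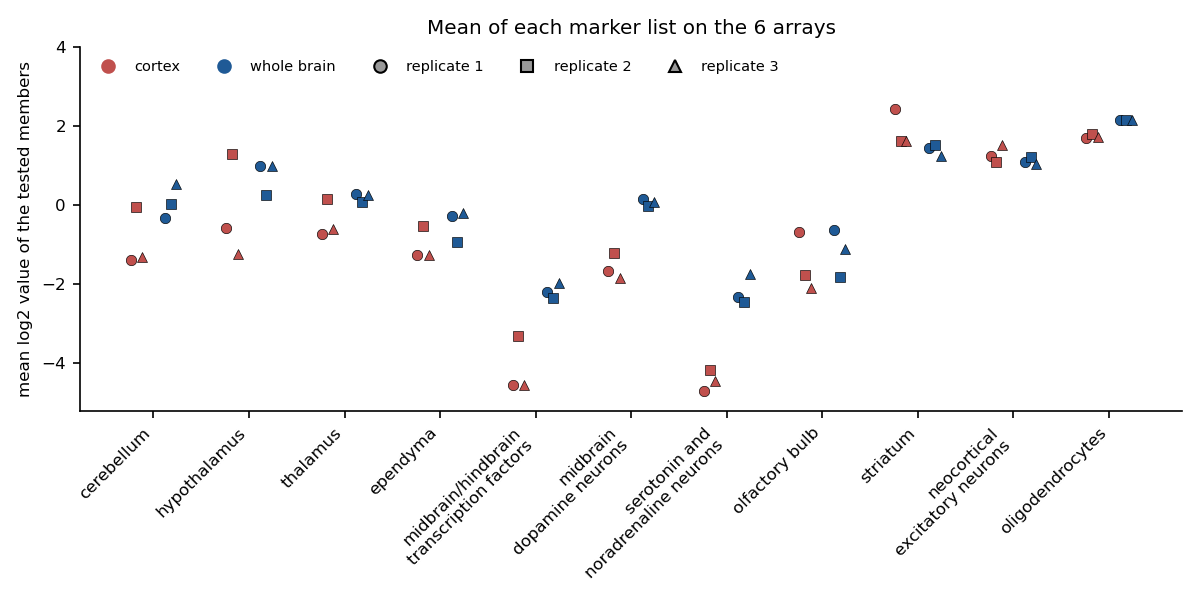
Mean log2 level of the tested members of each marker list (vertical axis, log2 intensity minus the 75th percentile of the array) on each of the 6 arrays, with cortex in red, whole brain in blue and the marker shape giving the replicate. Cortex replicate 2 (square) lay with the whole brain arrays for cerebellum, hypothalamus, thalamus and ependyma, whereas all 3 cortex arrays lay below whole brain for midbrain dopamine neurons, serotonin and noradrenaline neurons, midbrain and hindbrain transcription factors and oligodendrocytes.

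Genes of serotonin, dopamine, midbrain and hindbrain neurons made up most of the 12 largest falls in cortex by fitted difference. No called rise had a fitted difference as large as any of these 12. Of 15923 genes tested with limma, 667 were higher in cortex (4.19%) and 757 were lower (4.75%) at an adjusted p under 0.05. Counts of list members below are to be read beside these shares. The lists of astrocytes, mural cells, cadherins, striatum, amyloid and tau genes and reference genes, with 1 call in a direction, lay near them. The median difference was 1.48-fold among the higher genes and 1.4-fold among the lower ones. At least 2-fold fitted differences were seen in 40 higher and 76 lower genes, and fitted differences over 8-fold in 0 higher and 14 lower genes. For genes near background in cortex the fitted size is uncertain. The bounds given below for Hoxc4, Pou4f2, Hoxb5, Foxa2, Lhx4 and Hoxb4 were all under 8-fold. Over all genes tested the median log2 difference was -0.03, and the arrays of the tissues did not overlap in 39.2% of genes, called or not. Centring each array on its median in place of the 75th percentile changed the split to 382 higher and 904 lower genes.

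These counts depended on single arrays. Without cortex replicate 2, 848 genes passed (317 higher, 531 lower), and they included 277 of the 667 higher genes and 350 of the 757 lower ones. Without cortex replicate 3, 1910 passed, whereas 6 passed without cortex replicate 1 and 2, 5 and 3 without whole brain replicates 1, 2 and 3. Since the tissues did not overlap in any of the 667 higher and 757 lower genes, leaving out 1 array could not turn their direction. Slc6a3, the dopamine transporter, and Tph2 passed in all 6 (adjusted p up to 0.0435), Hoxc4 in 5, Foxa2 and Hoxb4 in 4, Slc6a4 in 3 and Hoxb5 in 2. The counts of list members given below shrink with the calls in the same way. A fit to all 24 mRNA arrays with the slide as a block, in which other groups link the slides, called 17 genes, 14 of them lower in cortex, among them the hindbrain genes Hoxa3, Hoxb4, Hoxb5 and Hoxc4, and it called no member of the serotonin, dopamine, transcription factor or oligodendrocyte lists. The medians of these lists kept their direction in that fit and lay further from 0, at -1.73, -2.45, -2.17 and -0.62 against -1.04, -1.49, -1.66 and -0.49. The differences of Slc6a4 and Tph2 were -9.68 and -8.64 (adjusted p = 0.187 and 0.17). Both exceed any gap between the values of these genes on the 6 arrays, so these sizes rest on slide terms estimated through other groups. In that fit 20 of 33 list medians moved by at least the spread between replicates.

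Serotonin neuron genes were lower in cortex than in whole brain. Of 8 tested members of the serotonin and noradrenaline list, 6 fell and 0 rose, and the median difference was -1.04. With a filter on all 6 arrays 4 were tested and 3 fell, with a median of -1.003. Normexp background correction gave 5 falls and a median of -0.735. The serotonin transporter Slc6a4 was at -7.21, -5.80 and -5.71 in cortex and at -0.84, -0.95 and -0.60 in whole brain. The cortex values were not well above background on any array, and the fall was at least 26.9-fold (log2 difference -5.44 ± 0.41 SE, adjusted p = 0.0172). Such a bound sets the whole brain mean against the mean over the cortex arrays of the higher of the gene's own value and the lowest value well above background on that array. Tph2 was at -6.35, -6.67 and -6.09 in cortex and at -2.07, -2.21 and -1.77 in whole brain, at least 12.1-fold lower in cortex (log2 difference -4.35 ± 0.18 SE, adjusted p = 0.00531). The cortex values of Tph2 were not well above background on any array either. For both genes the fitted differences and their SEs therefore rest on background levels in cortex.

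The transcription factors of these neurons were lower in cortex too. Gata3 was at -5.74, -3.33 and -5.80 in cortex and at -1.04, -1.04 and -0.98 in whole brain (fitted log2 difference -3.94 ± 0.66 SE, adjusted p = 0.0262). Its highest cortex value was that of replicate 2, and it was well above background on 1 of 3 cortex arrays, so the size of the fall rests in part on levels near background. Gata2 was at -2.69, -2.68 and -2.34 in cortex and at -1.53, -1.55 and -1.41 in whole brain (log2 difference -1.07, adjusted p = 0.0201), and Fev differed by -1.02 (adjusted p = 0.0222), with cortex levels of -3.95, -3.62 and -3.86 and whole brain levels of -2.94, -2.92 and -2.52. The serotonin receptor gene Htr5b fell by 0.74 (adjusted p = 0.0412). Dbh, the enzyme that turns dopamine into noradrenaline, did not pass (log2 difference -0.99, adjusted p = 0.386), and its whole brain values of -3.16, -2.93 and -0.40 were far apart.

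Dopamine neuron genes showed the same direction. Of 13 tested members of that list, 8 fell and 0 rose, with a median difference of -1.49, and 11 of the 13 had negative differences. The dopamine transporter Slc6a3 was at -2.57, -2.78 and -3.11 in cortex and at 1.51, 1.44 and 1.22 in whole brain, an 18.5-fold difference (log2 difference -4.21 ± 0.16 SE, adjusted p = 0.00531). It was well above background on all 6 arrays, so this difference is measured on both sides. Ddc, the enzyme that makes dopamine and serotonin from their amino acid precursors, was at 1.06, 1.37 and 0.79 in cortex and at 2.69, 2.40 and 2.52 in whole brain, a 2.76-fold difference (adjusted p = 0.0203). Slc18a2, which loads monoamines into vesicles, was at -0.92, -0.43 and -1.11 against 0.83, 0.52 and 0.78 (log2 difference -1.53, adjusted p = 0.0206). None of these groups of values overlapped.

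Further called members were the nicotinic receptor subunit Chrna6 (log2 difference -1.90, adjusted p = 0.0289), the receptor tyrosine kinase Ret (-1.77, adjusted p = 0.0433), the retinaldehyde dehydrogenase Aldh1a1 (-1.01, adjusted p = 0.0216) and the transcription factor Pitx3 (-0.50, adjusted p = 0.037). Th, the rate-limiting enzyme of dopamine synthesis, missed the threshold (log2 difference -1.49, adjusted p = 0.0615). Its cortex levels of 1.63, 1.52 and 0.26 were further apart than those of whole brain, 2.83, 2.30 and 2.74, and the tissues did not overlap. Nr4a2, a transcription factor that dopamine neurons share with deep cortical neurons, differed by -0.12 (adjusted p = 0.684).

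**Figure D2:**
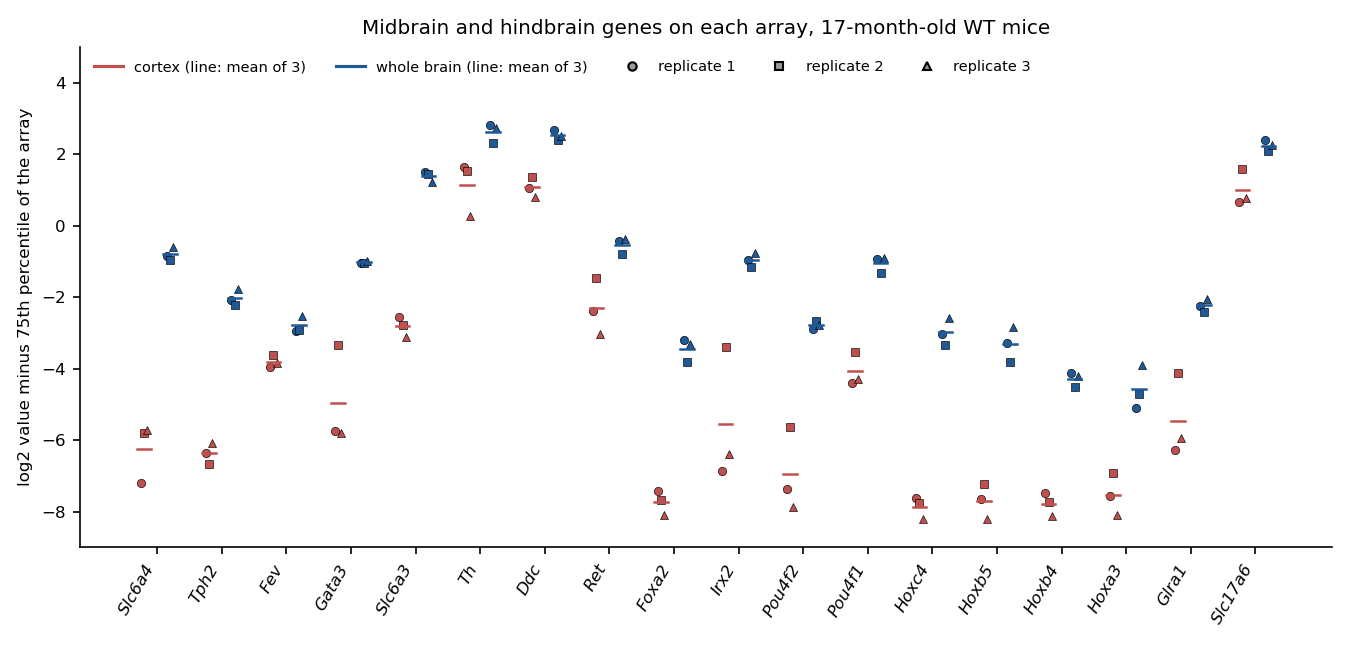
Log2 level (log2 intensity minus the 75th percentile of the array) of 18 genes of serotonin, dopamine, midbrain and hindbrain neurons on the 3 cortex arrays (red) and the 3 whole brain arrays (blue) of 17-month-old WT mice, with the marker shape giving the replicate and a line at each group's mean. All cortex values lay below all whole brain values. The cortex values of Slc6a4, Tph2, Foxa2, Pou4f2 and the Hox genes were not well above background on any array. The width of their gaps therefore rests on background levels. Genes with their highest cortex value on replicate 2 (square) included Gata3, Irx2, Pou4f2, Glra1, Pou4f1, Fev, Ddc, Hoxb5 and Slc17a6.

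Transcription factors that mark the midbrain and hindbrain formed the list with the lowest median under the filter used here. Of 26 tested, 14 fell and 0 rose, 25 had negative differences, and the median was -1.66. That rank depends on the processing. With a filter on all 6 arrays 13 were tested, 6 fell, and the median was -1.07, beside -1.46 for dopamine neuron genes. Normexp background correction gave a median of -0.75, beside -1.16 for dopamine neuron genes. Foxa2, a factor of midbrain dopamine and floor plate cells, was at -7.42, -7.69 and -8.10 in cortex, not well above background on any array, and at -3.20, -3.81 and -3.32 in whole brain, at least 4.52-fold lower in cortex (adjusted p = 0.0106). Pou4f1, of sensory and habenular neurons, was at -4.40, -3.54 and -4.28 against -0.94, -1.31 and -0.91, an 8.10-fold difference (log2 difference -3.02 ± 0.25 SE, adjusted p = 0.0172). Pou4f2, its relative, was at least 7.17-fold lower in cortex (adjusted p = 0.0207), with cortex values of -7.38, -5.62 and -7.88 and whole brain values of -2.89, -2.67 and -2.77.

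The Iroquois factors Irx1, Irx2, Irx5 and Irx6 and the paired-box factors Pax3, Pax7 and Pax8 were also among the 14. So were Tal1, Gata2, Gata3 and Six3, although Six3 is not particular to these regions. Six3 differed by -0.68 (adjusted p = 0.0206), and by -0.15 in the fit with slides (adjusted p = 0.946). Gata2 and Gata3 also stood in the serotonin list and Foxa2 in the dopamine list, so these lists share called genes. Irx2 was at -6.87, -3.39 and -6.38 in cortex and at -0.96, -1.17 and -0.78 in whole brain (fitted log2 difference -4.58 ± 0.89 SE, adjusted p = 0.0342), where 1 of 3 cortex arrays was well above background and the size again rests in part on background levels, and Irx1 differed by -2.13 (adjusted p = 0.0388). Irx3 and Foxa1 missed the threshold with all arrays (adjusted p = 0.0989 and 0.0714) and passed without cortex replicate 2 (0.00613 and 0.007). Irx3 was at -5.36, -1.63 and -5.41 in cortex, so replicate 2 alone lay near the whole brain values of -1.08, -1.13 and -0.68. Without that array 19 of the 26 factors fell, 0 rose, and the median was -2.15. Lhx4, which stood in the pituitary list, was at least 2.70-fold lower in cortex (adjusted p = 0.0172).

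Hox genes, which mark the hindbrain and spinal cord from front to back, were mostly not well above background in cortex. Of 39 Hox genes 32 were well above background on 0 cortex arrays and 24 on 0 whole brain arrays, and 12 could be tested. Of these 5 fell and 1 rose, with a median of -1.32, and 4 of the 12 had positive differences. That count and median depend on the filter, since the 5 that fell passed it through whole brain alone. With a filter on all 6 arrays 3 Hox genes were tested, 1 rose, 0 fell and the median was 0.30, without a filter 1 of 39 fell with a median of -0.18, and normexp background correction gave a median of -0.22. Hoxc4 was at -7.63, -7.77 and -8.20 in cortex and at -3.04, -3.33 and -2.58 in whole brain, at least 6.22-fold lower in cortex (log2 difference -4.88 ± 0.23 SE, adjusted p = 0.00782). Hoxb5 was at -7.65, -7.22 and -8.21 against -3.27, -3.83 and -2.85, at least 4.94-fold lower (adjusted p = 0.0172), and Hoxb4 was at least 2.53-fold lower (adjusted p = 0.0106).

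Hoxa3 and Hoxb2 fell by at least 2.06-fold and 2.19-fold (adjusted p = 0.021 and 0.0346). Cortex replicate 2 did not reach the whole brain range in Hoxc4, Hoxb5 or Hoxb4. The member called in the other direction was Hoxa9, at -4.06, -3.77 and -3.85 in cortex and at -4.39, -4.27 and -4.53 in whole brain (log2 difference 0.50, adjusted p = 0.0444). Its call was lost without cortex replicate 2 (adjusted p = 0.0856) and with median centring (adjusted p = 0.0594). Hoxb3 and Hoxa5, listed to check the hindbrain, were well above background on 0 of the 6 arrays.

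Some members of the glycine list and a transporter gene of subcortical glutamate neurons were lower in cortex too. The glycine receptor subunit Glra1 was at -6.29, -4.14 and -5.96 in cortex and at -2.24, -2.40 and -2.05 in whole brain (fitted log2 difference -3.23 ± 0.55 SE, adjusted p = 0.0271), and 1 of 3 cortex arrays was well above background. The glycine transporter Slc6a9 and the gap junction gene Gjd2 fell by 0.68 and 0.58 (adjusted p = 0.0271 and 0.0244), but Gjd2 had a difference of 0.46 in the fit with slides. In all, 3 of 8 tested members of the glycine list fell and 0 rose, with a median of -0.63. Among the vesicular transporters for glutamate and GABA, Slc17a6, that of thalamus, hypothalamus and brainstem, was at 0.67, 1.59 and 0.77 in cortex and at 2.39, 2.08 and 2.25 in whole brain, a 2.34-fold difference (adjusted p = 0.0385). Slc17a7, that of cortical neurons, differed by 0.37 (adjusted p = 0.273), Slc17a8 by -0.37 (adjusted p = 0.305) and the GABA transporter Slc32a1 by 0.11 (adjusted p = 0.61).

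**Figure D3:**
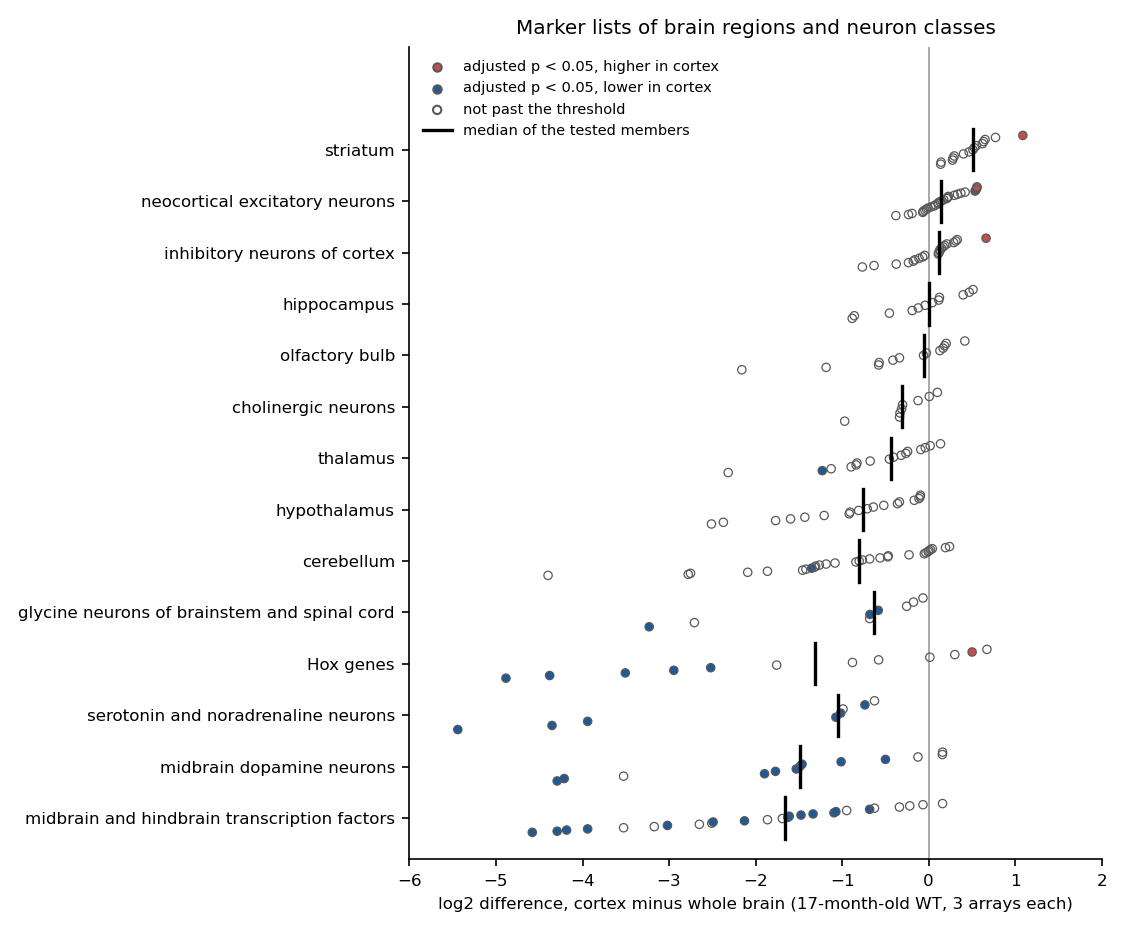
Log2 difference of every tested member of 14 marker lists (horizontal axis, cortex minus whole brain, 3 arrays each), with filled points for members past the adjusted threshold, open points for the others and a bar at each list's median. Members of the midbrain and hindbrain lists extended to below -4, while those of the striatum list all lay above 0 and those of the neocortical list lay around 0.14.

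Genes of the cerebellum, hypothalamus and thalamus varied with cortex replicate 2. Of 29 tested cerebellar genes 1 fell and 0 rose with all arrays (median -0.80), and 9 fell without that array (median -1.10). Gabra6, the GABA receptor subunit of cerebellar granule cells, was at -7.40, 0.16 and -6.53 in cortex and at -1.80, 0.17 and 1.06 in whole brain. Cortex replicate 2 lay at the middle of the whole brain values, while the gene was not well above background on the other cortex arrays. The adjusted p was 0.203 with that array and 0.0389 without it, and no size is given because the other cortex values lay near background.

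Pcp2, a Purkinje cell gene, was at -0.66, 3.17 and -0.82 in cortex and at 2.04, 3.31 and 4.68 in whole brain (log2 difference -2.78, adjusted p = 0.185, and -4.08 without replicate 2, adjusted p = 0.0494). The whole brain arrays also differed among themselves, and replicate 3 was the highest for both Gabra6 and Pcp2. Zic4, a transcription factor of the cerebellum and midline, was the gene called with all arrays (log2 difference -1.35, adjusted p = 0.0325).

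All 18 tested hypothalamic genes had negative differences and 0 passed (median -0.76), whereas 5 fell without cortex replicate 2 (median -1.43). Oxt, which encodes oxytocin, was at 2.0, 5.80 and -1.51 in cortex and at 5.02, 3.51 and 5.29 in whole brain, so its highest value of the 6 was that of a cortex array. Pmch, the precursor of melanin-concentrating hormone, was at 0.50, 3.75 and -0.61 against 3.10, 2.91 and 2.94, with an adjusted p of 0.304 with replicate 2 and 0.0366 without it. The same held for Hcrt, the orexin precursor (adjusted p = 0.313 and 0.0486), and for Pomc, the precursor of melanocortins (0.126 and 0.032). Of 16 thalamic genes 1 fell with all arrays, which was Slc17a6, and 4 fell without replicate 2. Tcf7l2, the factor of thalamic neurons, was at -2.72, -0.38 and -2.10 in cortex and at 0.60, 0.42 and 0.73 in whole brain, with a difference of -2.32 (adjusted p = 0.0563) and of -2.99 without that array (adjusted p = 0.024). Whether the dissection differed between cortex samples was not tested.

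Myelin and oligodendrocyte genes were lower in cortex by less than 2-fold. Of 25 tested, 18 fell and 0 rose, with a median of -0.49, and without cortex replicate 2 14 of 24 fell. The mean of the list was 1.70, 1.80 and 1.72 on the cortex arrays and 2.15, 2.14 and 2.15 on the whole brain arrays. Mag, an adhesion protein of the myelin sheath, was at 4.38, 4.55 and 4.33 in cortex and at 5.0, 5.06 and 5.21 in whole brain, a 1.59-fold difference (log2 difference -0.67 ± 0.10 SE, adjusted p = 0.0216).

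Enpp6, of newly formed oligodendrocytes, fell by 0.84 (adjusted p = 0.0266), the connexin Gjb1 by 0.68 (adjusted p = 0.0225), the node protein Hapln2 by 0.68 (adjusted p = 0.0201) and the lineage factor Sox10 by 0.50 (adjusted p = 0.0258). Not every myelin gene took part. Mbp, myelin basic protein, differed by 0.28 (adjusted p = 0.0867), with its 3 probes between -0.08 and 0.54, and Mog, a protein of the outer sheath, differed by 0.08 (adjusted p = 0.533). Of 10 tested genes of oligodendrocyte precursors 0 passed, and their median was -0.06.

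Among astrocyte genes 1 of 22 fell and 0 rose, with a median of -0.24. That gene was Gfap, the intermediate filament of astrocytes, at 2.08, 2.39 and 2.31 in cortex and at 2.90, 2.88 and 3.10 in whole brain, a 1.63-fold difference (adjusted p = 0.0252). Its probes ranged from -0.96 to -0.22. Of 19 microglial genes 2 fell, Olfml3 (-0.52, adjusted p = 0.0426) and the integrin Itgam (-0.39, adjusted p = 0.03), and 1 rose, the complement gene C1qb (0.34, adjusted p = 0.0341). Of 17 endothelial genes 5 fell, among them the receptors Flt1 and Tie1 (-0.46 each, adjusted p = 0.0335 and 0.0473), and 1 did so without cortex replicate 2. Choroid plexus genes fell in 2 of 19 cases, with Slc4a5, a bicarbonate transporter, at -1.34 (adjusted p = 0.0207). Mural cell genes fell in 1 of 13, and those of ependyma (11), meninges (15) and red blood cells (6) in 0.

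**Figure D4:**
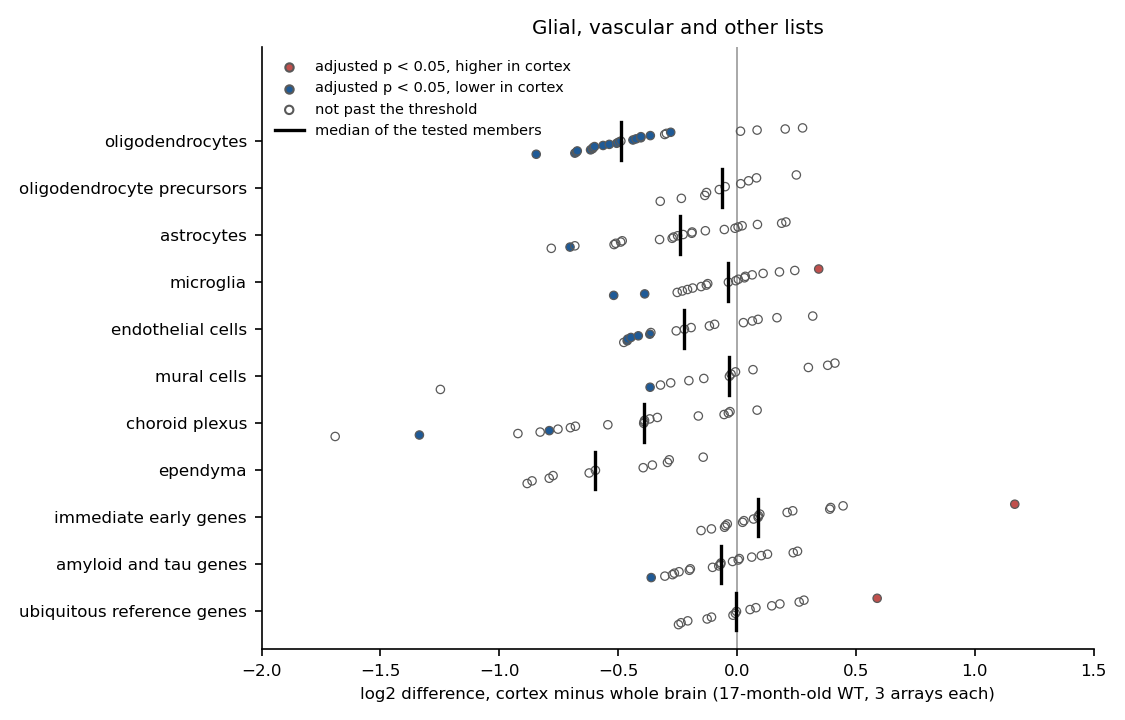
Log2 difference of every tested member of 11 lists of glial, vascular, ventricular and other genes (horizontal axis, cortex minus whole brain, 3 arrays each), with filled points for members past the adjusted threshold and a bar at each list's median. The oligodendrocyte list, with 18 of 25 members filled, lay around -0.49, and the reference genes lay around 0.00.

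Most genes of cortical neurons did not pass the test of cortex against whole brain, and the same held for all genes tested. The defining cortex markers Emx1 and Neurod6, transcription factors of its glutamate neurons, were well above background on all 6 arrays. Emx1 was at -0.11, -0.24 and 0.56 in cortex and at -0.29, -0.17 and -0.33 in whole brain, and the groups overlapped (log2 difference 0.33, adjusted p = 0.329). Neurod6 differed by 0.15 (adjusted p = 0.589). Of 28 tested genes of neocortical excitatory neurons 2 rose and 0 fell, with a median of 0.14 and 20 positive differences. Over all genes tested 4.19% rose and 4.75% fell.

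The genes that rose were Rorb, a nuclear receptor of layer 4 neurons, and Rasgrf2, an exchange factor of upper layers. Rorb was at 0.34, 0.22 and 0.31 in cortex and at -0.22, -0.19 and -0.37 in whole brain, a 1.47-fold difference (log2 difference 0.55 ± 0.08 SE, adjusted p = 0.0223), and Rasgrf2 differed by 0.54 (adjusted p = 0.0252). Among 21 genes of cortical inhibitory neurons Reln, the secreted protein of layer 1 cells, rose by 0.66 (adjusted p = 0.0206), and Pvalb, of fast-spiking cells and Purkinje cells, differed by -0.77 (adjusted p = 0.119). Hippocampal genes (12 tested) and olfactory bulb genes (13 tested) gave 0 calls in either direction with all arrays, and so did the 8 cholinergic genes.

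Genes of the striatum had positive differences in all 15 tested cases, from 0.14 to 1.09 with a median of 0.51, and 1 passed the test. Without cortex replicate 1 the median was 0.20 and 0 passed. Drd2, the D2 dopamine receptor, was at -1.30, -1.81 and -1.91 in cortex and at -2.79, -2.55 and -2.94 in whole brain, a 2.13-fold difference (log2 difference 1.09 ± 0.19 SE, adjusted p = 0.0273). The adenosine receptor Adora2a differed by 0.65 (adjusted p = 0.144) and Penk, the enkephalin precursor, by 0.28 (adjusted p = 0.469). Cortex replicate 1 had the highest striatal mean, 2.43, while replicates 2 and 3 at 1.63 and 1.62 were nearer to the whole brain values of 1.44, 1.53 and 1.24. Whether striatum was part of the cortex samples was not tested.

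Receptors of transmitters went either way. Htr2a, the serotonin receptor of cortical pyramidal neurons, was at 0.75, 0.26 and 0.48 in cortex and at -0.28, -0.39 and -0.35 in whole brain, a 1.79-fold difference (adjusted p = 0.0247), and Htr1b rose by 0.60 (adjusted p = 0.0322). Of 13 serotonin receptor genes 2 rose and 1 fell. Among 18 ionotropic glutamate receptor subunits the NMDA receptor subunit Grin1 rose by 0.71 (adjusted p = 0.0207), and the related subunits Grin3a and Grin3b fell by 0.74 and 1.35 (adjusted p = 0.0307 and 0.0479). Of 20 GABA-A and glycine receptor subunits 1 fell, which was Glra1. Of 16 cadherins, adhesion proteins, Cdh6 rose by 0.68 (adjusted p = 0.0203) and Cdh18 fell by 0.42 (adjusted p = 0.0383).

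Among 19 tested amyloid and tau genes 1 fell, the APP relative Aplp1, by 0.36 (adjusted p = 0.0415), and App itself differed by -0.02 (adjusted p = 0.875). Among 15 ubiquitous reference genes 1 rose, Ywhaz, by 0.59 (adjusted p = 0.0203), although its 3 probes ranged from -0.20 to 0.60. Gapdh, a glycolytic enzyme, was at 8.63, 8.66 and 8.54 in cortex and at 8.55, 8.57 and 8.72 in whole brain, so the tissues overlapped.

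The rises named here were smaller than the largest falls and came from several classes of genes, olfactory receptor genes among them. They are the 12 largest among genes well above background on all 3 cortex arrays, and 8 other called rises of that size were so on only 2 cortex arrays and on 0 whole brain arrays, the largest being Wnt2b (fitted log2 difference 2.02, at least 1.17-fold, adjusted p = 0.0301). Nr4a3, an activity-induced nuclear receptor, was at -4.81, -4.31 and -4.59 in cortex and at -5.68, -5.71 and -5.82 in whole brain (log2 difference 1.17 ± 0.14 SE, adjusted p = 0.0203). It was the only one of 17 immediate early genes that passed, and it was well above background on 1 whole brain array. Kctd16, an auxiliary subunit of GABA-B receptors, was at 1.40, 1.38 and 1.09 against 0.01, 0.04 and 0.11, a 2.36-fold difference (adjusted p = 0.0172). Lrrc7, a scaffold protein of the synapse, was at -2.38, -2.47 and -2.86 against -3.52, -4.04 and -3.94 (log2 difference 1.26, adjusted p = 0.0225). In none of these genes did the tissues overlap.

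Tmprss3, a membrane protease, was at 1.33, 1.33 and 0.73 against -0.04, -0.26 and -0.07 (log2 difference 1.25, adjusted p = 0.0223) and Fam13c at 1.33, 1.56 and 1.31 against 0.25, 0.24 and 0.41 (1.10, adjusted p = 0.0172), but a second probe of each gene differed by -0.09 and -0.15. The other rises among the 12 named were Olfr432, an olfactory receptor gene that was well above background on 0 whole brain arrays and at least 2.27-fold higher in cortex (adjusted p = 0.0201), Olfr330, Olfr1232, Olfr434, Atp9b, Gimap4 and Defb45. Of the 187 olfactory receptor genes tested, a group looked at after these values were seen, 17 rose (9.09%) and 0 fell, with a median of 0.25. Cortex replicate 3, the array on a slide of its own, was the lowest of the 3 cortex arrays in 323 of the 667 higher genes (48.4%). In these genes it thus lay furthest toward whole brain, as it did in 40.7% of all genes tested. Among the 757 lower genes it lay furthest toward whole brain in 326 (43.1%). The part of the slide in these rises was not tested beyond the fit with slides, in which Tmprss3, Nr4a3, Olfr434 and Olfr1232 had differences of the opposite sign (-0.03, -0.23, -0.06 and -0.10).

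Whether the tissue difference depended on age was tested on 12 WT arrays as the interaction of tissue and age. Of 16251 genes tested 108 passed (0.665%). The cortex minus whole brain difference was more positive at 17 months in 55 of them and more negative in 53. The whole brain arrays of 10 months lay on the slide of cortex replicate 3 and those of 17 months on another, so the age of whole brain and the slide cannot be told apart. Leaving out 1 array left at most 2 calls for 10 of the 12 arrays. The calls numbered 586 without 17-month cortex replicate 3 and 149 without 10-month whole brain replicate 3. Centring on the median left 24 calls, 7 of them more positive and 17 more negative at 17 months. The comparison of tissues at 10 months alone called 2 genes, both lower in cortex, which were Chrna6 and the angiotensin receptor gene Agtr2. Its medians were -1.46 for dopamine neuron genes and -1.49 for the midbrain and hindbrain factors, beside -1.49 and -1.66 at 17 months. They were -0.37 against -1.04 for serotonin and noradrenaline genes and 0.05 against -1.32 for Hox genes. For oligodendrocyte genes they were -0.21 against -0.49 and for choroid plexus genes 0.14 against -0.39. The 10-month medians covered 6 of the 12 Hox genes, 7 of the 8 serotonin and noradrenaline genes and 24 of the 26 factors. For these lists a difference between the ages therefore rests in part on which members were tested.

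Hoxb4 and Hoxb5 changed most, and Hoxb4 was the gene called in the fit with slides. Hoxb4 was at -7.97, -8.16 and -8.17 in cortex and -7.55, -7.07 and -7.58 in whole brain at 10 months, and at -7.48, -7.75 and -8.12 in cortex and -4.12, -4.52 and -4.20 in whole brain at 17 months (change -2.80, adjusted p = 0.0309). Hoxb5 changed by -3.45 (adjusted p = 0.0371), from 10-month whole brain levels of -6.94, -6.02 and -6.42 to -3.27, -3.83 and -2.85. In both genes the 17-month whole brain arrays stood alone, and too few 10-month arrays were well above background for a test at that age. The value of each change therefore rests in part on levels near background.

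Fcmr, an immunoglobulin M receptor gene, was also higher in whole brain at 17 months, with levels of -2.70, -3.06 and -2.49 against -4.45, -4.79 and -4.44 in cortex, while at 10 months whole brain lay at -4.16, -3.74 and -3.88 and cortex at -3.87, -4.23 and -4.46 (change -1.55, adjusted p = 0.0423). Tmprss3 went the other way. It was at 0.77, 0.74 and 0.69 in cortex and 0.83, 0.70 and 0.88 in whole brain at 10 months, and its whole brain values at 17 months, -0.04, -0.26 and -0.07, were the lowest of the 4 groups (change 1.32, adjusted p = 0.0371). Ralgps1, an exchange factor for Ral proteins, was at 1.30, 1.40 and 1.34 in cortex and 1.43, 1.32 and 1.47 in whole brain at 10 months, and at 1.91, 1.89 and 1.43 and at 0.70, 0.67 and 0.64 at 17 months (change 1.13, adjusted p = 0.0371).

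**Figure D5:**
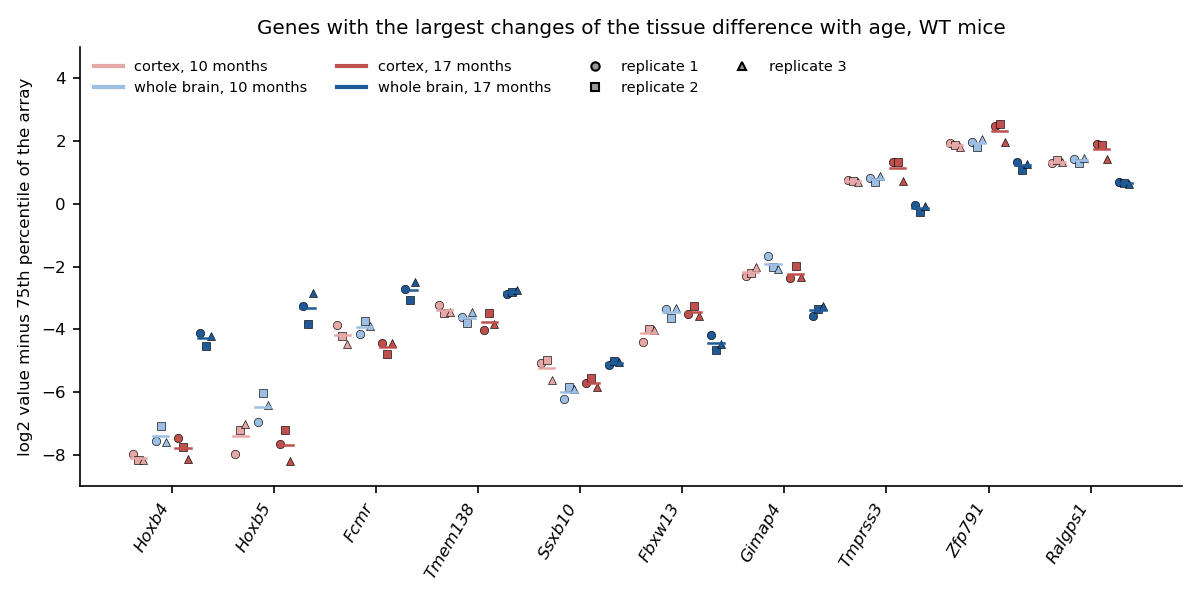
Log2 levels (log2 intensity minus the 75th percentile of the array) of the 10 genes with the largest called changes of the tissue difference between 10 and 17 months in WT mice, for cortex (red) and whole brain (blue) at 10 months (pale) and 17 months (dark), with the marker shape giving the replicate and a line at each mean of 3 arrays. Whole brain at 17 months stood apart from the other groups for Hoxb4, Hoxb5, Fcmr, Gimap4 and Tmprss3.

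Whether the tissue difference depended on genotype was tested in the same way on the 17-month WT and Tg2576 arrays. Of 16151 genes tested 0 passed (0%) in limma, where 1723 had an unadjusted p under 0.05 and the lowest adjusted p was 0.259. The Tg2576 comparison, which has its own cortex and whole brain samples, called 214 genes, 175 higher and 39 lower in cortex. Its medians were -0.24 for dopamine neuron genes, -0.13 for serotonin and noradrenaline genes and -0.13 for midbrain and hindbrain factors, beside -1.49, -1.04 and -1.66 in WT mice. The Tg2576 medians covered 6 of the 8 serotonin and noradrenaline genes and 24 of the 26 factors tested in WT mice. The oligodendrocyte median was 0.13 in Tg2576 mice and -0.49 in WT mice. These values are given side by side, since no gene passed the test of the difference with these 12 arrays. Slc6a3, the dopamine transporter, was at 1.33, 2.43 and -1.66 in Tg2576 cortex and at 1.88, 1.71 and 1.59 in Tg2576 whole brain, so that a single cortex array of that genotype lay above all 3 whole brain arrays and another far below them. Without that low array, Tg2576 cortex replicate 3, the interaction called 5 genes, which were Slc6a3 (-4.36, adjusted p = 0.0388), Hapln2 (-1.39, adjusted p = 0.0398), Anln, Ssxb10 and Zfp979, and without WT cortex replicate 3 it called 9, none of them members of the lists. A model of all 24 arrays called 5 genes, Vill, Kcng1, Plxnb3, Tns3 and Zfp979.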

How the data were processed

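Total RNA of mouse cortex or whole brain was extracted with mirVana PARIS, labelled with Cy3 by the Low Input Quick Amp kit and hybridised by the authors to 1-colour Agilent mouse arrays. The deposited scanner files hold intensities that Agilent Feature Extraction 10.7.3.1 had corrected for background. The deposited value table holds the authors' log2 values, made with GeneSpring GX, and its values lay within 0.01 of those computed here in at least 99.8% of probes of every array, which is why they served as an alternative. The authors' scaling was the 75th percentile, as read from their values.

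Here, log2 of the processed intensity minus the array's 75th percentile was used, control spots were left out and spots of a probe were averaged, which gave 55681 probes. Of these, 26056 were given a symbol through RefSeq accessions, and the 29625 others were tested but not named. Tests were run on the 38018 probes whose background mark was passed by 2 or more cortex arrays or by 2 or more whole brain arrays. Differences were fitted with limma 3.58.1 in R 4.3.3 on the 6 arrays, with Benjamini-Hochberg adjustment over all probes tested and a threshold of 0.05. A gene was read from its probe with the highest mean over the 24 mRNA arrays, so genes with several probes depend on that choice. Interactions with age and genotype used 12 arrays each. An exact permutation test of 3 against 3 arrays cannot go below 0.1, so none was used. The procedure was tested on simulated data.

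The members and the gene lists were chosen with earlier results of these data known. Named were the 12 largest rises and falls without overlap between tissues and well above background on all 3 arrays of the higher tissue, the 3 largest differences and the highest level of each list, the 5 largest changes in each direction of an interaction and the defining markers; the other list members named were picked after their values were seen. Lists are described by counts and medians, with no test. Replicate numbers come from the sample titles and did not pair the samples. Precision is limited by the 3 arrays of a group. The miRNA arrays and the Tg2576 arrays of 10 months were not compared here. Alternatives covered quantile and median scaling, the authors' values, background correction by normexp, the filter on dim probes, the replicate block, the slide, the methods' t-test and each array left out, and the list counts without cortex replicate 2 were added after seeing the data. A few list members are not reported here.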

Additional observations from a re-analysis of the deposited data

Results flagged for a closer look

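The difference between cortex and whole brain of WT mice changed between 10 and 17 months in 108 of 16251 genes by the interaction test in limma. The largest positive changes, on the log2 scale, were those of Fbxw13 (1.68, adjusted p = 0.0371), Gimap4 (1.42, adjusted p = 0.0371), Tmprss3 (1.32, adjusted p = 0.0371), Zfp791 (1.15, adjusted p = 0.0434) and Ralgps1 (1.13, adjusted p = 0.0371). The largest negative changes were those of Hoxb5 (-3.45, adjusted p = 0.0371), Hoxb4 (-2.8, adjusted p = 0.0309), Fcmr (-1.55, adjusted p = 0.0423), Ssxb10 (-1.41, adjusted p = 0.0404) and Tmem138 (-1.19, adjusted p = 0.0404). Gimap4, a GTPase gene of lymphocytes, was at -2.29, -2.20 and -2.02 in cortex and at -1.67, -2.01 and -2.08 in whole brain at 10 months, and at -2.35, -1.99 and -2.32 and at -3.57, -3.35 and -3.25 at 17 months. Zfp791, a zinc finger gene, was at 1.94, 1.88 and 1.83 and at 1.97, 1.81 and 2.05 at 10 months, and at 2.48, 2.56 and 1.96 and at 1.33, 1.09 and 1.28 at 17 months. For Zfp791, cortex replicate 3 of 17 months lay below the other 2 cortex arrays of that age.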

How the results depend on the processing

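With quantile scaling, the authors' values, normexp, outlier spots kept or a filter on all 6 arrays, the counts of probes and genes called in cortex against whole brain stayed within 1.5 times of 3917 and 1424, and median centring gave 3300 probes (1506 higher, 1794 lower, against 2451 and 1466). Calls fell to 3 probes and 3 genes without the filter on dim probes. With the slide as a random block they were 797 and 287, and with all 24 arrays and the slide as a fixed block 72 and 17. The methods' t-test gave 1354 and 573 after adjustment. At an unadjusted p under 0.05 it had called 4499 genes, without the 1.5-fold cut that the study also set for mRNA. Calls rose to 8241 and 3310 in a model of all 24 arrays, and a trended prior gave 2431 genes. With the replicate block, in a paired fit, 2 probes passed, those of Slc6a3 and Tph2, hence also 2 genes, but same-numbered samples deviated together at 0.14, -0.03 and -0.06 only. Leaving out 1 array gave 3 to 5350 probes and 2 to 1910 genes. Genes whose tissue difference changed with age numbered 24 with median centring, 0 without the filter, 70 with all 24 arrays, 1 with slides as well, and 0 to 586 with 1 array left out. Those that changed with genotype numbered 5 with all 24 arrays, 2 with slides and 0 to 9 with 1 array left out. The cause of these shifts was not tested, apart from fewer arrays or more probes in the fit.

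With the slide as a fixed block, among called genes named by the rule, differences turned for Tmprss3 (-0.029), Nr4a3 (-0.227), Olfr1232 (-0.096), Olfr434 (-0.059), Olfml3 (0.514), Grin3a (0.075) and Zfp791 (-0.146). So did that of Gjd2 (0.461), a called list member. Of 2739 values of 146 named genes under the alternatives, 2146 kept their direction and side of the threshold, 490 lost it, 65 gained it, 31 turned in genes that were called neither way, among them those of Igf2 (0.391) and Glra3 (-0.735) with slides, and these 7 turned in called genes. Of 561 list medians, 496 moved by less than the spread between replicates. Genes near background, such as Hoxb4 in cortex, have only bounds.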

Other observations

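Genes that were well above background on no cortex array numbered 58 among those tested, and 22 of them were called lower in cortex, while of 64 genes well above background on no whole brain array 17 were called higher in cortex. These genes passed the filter through the higher tissue alone, so the shares describe the filter as well as the tissues.

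Olfactory bulb genes were highest on cortex replicate 1, where the mean of the 13 tested was -0.68, beside -1.76 and -2.11 on the other cortex arrays and -0.63, -1.82 and -1.12 on the whole brain arrays. Pituitary genes (7 tested) had a median difference of -1.56, and 1 of them was called with all arrays and 3 without cortex replicate 2. The median was -0.32 without cortex replicate 1, -2.58 without cortex replicate 3, -0.47 with a filter on all 6 arrays (3 tested, 0 called) and -0.23 in the fit with slides.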
